A study of Mus musculus with 20 samples.

Results

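Control axons and control cell bodies of cultured mouse motoneurons were compared in 8 of the 20 RNA-seq libraries of the series, 4 axonal and 4 somatodendritic. They were chosen by their labels, which give the genotype as Control and name the compartment, and the libraries of Tdp-43 knockdown motoneurons were not used here. All 8 libraries come from primary motoneurons of CD-1 mouse embryos that were enriched from spinal cord by panning for the receptor p75 and transduced with an empty lentiviral expression vector, so that both groups carry the same virus. The cells grew in microfluidic chambers that separate axons from cell bodies and dendrites, with CNTF on both sides and BDNF on the axonal side. The compartments therefore also differ in this factor. The labels name no culture or animal behind a library, so that p-values measure only the spread between these libraries, which may be technical. Panning enriches motoneurons and may leave other cells of the embryonic spinal cord. In bulk RNA, fewer cells of a type and less RNA per cell cannot be told apart.

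Axons of motoneurons hold a selection of the transcripts made in the nucleus. RNA-binding proteins package these transcripts, motor proteins carry them along microtubules, and ribosomes in the axon and growth cone translate them, as is well known for beta-actin. Transcripts for ribosomal proteins and for mitochondrial proteins are recurrent members of such axonal populations, whereas many transcripts for synaptic receptors and ion channels are thought to be translated mainly in the cell body and in dendrites. The comparison addresses which transcripts were more or less abundant in control axons than in the cell bodies, relative to all other transcripts.

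Expression is given as FPKM, the number of fragments that map to a gene divided by its exonic length and by the mapped fragments of the library, which the authors computed for 39174 genes in each library. Summed FPKM lay between 619990 and 708234 per library. Between 11469 and 12158 genes reached 1 FPKM in axonal libraries and between 12775 and 13446 in somatodendritic libraries. Depth read from the 95% interval of each FPKM value was 0.336 to 0.390 of the deepest library in axons and 0.565 to 1 in the somatodendritic compartment, and the median gene above 0 rested on 1.74 to 1.99 and 2.22 to 3.6 implied fragments. The correlation between libraries across genes was 0.859 to 0.886 within axons and 0.929 to 0.942 within the somatodendritic group. For genes at 10 to 100 FPKM, the median SD between libraries was 0.59 log2 units in axons and 0.32 in the somatodendritic group. Axonal replicate 4 stood apart from the other axonal libraries in its mitochondrially encoded RNA, contractile and glial genes.

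The labelled cell type was checked against the motoneuron markers found in the files, 9 in all. Chat, the acetylcholine-synthesising enzyme, and Mnx1 and Isl2, transcription factors of motoneurons, were listed at 0 (at most 0.001 FPKM) in all 8 libraries. Whether reads of these genes were lost in making the deposited gene table cannot be told from the files, so that these zeros do not measure absence. Isl1, another motoneuron transcription factor, was at 0, 3.20, 1.92 and 2.82 FPKM after scaling in somatodendritic libraries 1 to 4 and at 0, 8.46, 0 and 0 in axonal libraries 1 to 4. The choline transporter Slc5a7 was above 0 in somatodendritic replicate 3 alone, at 0.218. Of the 9, 3 reached a mean of 1 FPKM and could be tested, and none of these was called in either direction by the test used below. Besides Isl1 they were Ret, a receptor for glial cell line-derived neurotrophic factor family ligands, at 0.446, 0.943, 7.93 and 2.51 in axons and 8.10, 7.04, 7.85 and 3.54 in cell bodies, and Ngfr, the p75 receptor used for panning, at 1.57, 0, 0 and 19.4 and 0.889, 0.556, 2.95 and 3.29. The summed level of the 9 was 2.02 to 23.6 in axons, highest in replicate 4 through Ngfr, and 9.65 to 15.3 in cell bodies. Motoneuron markers were thus low or listed at 0 in both compartments, while general neuronal transcripts such as Tubb3, Gap43 and Stmn2 were abundant in both.

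To compare the compartments, a scaling factor was set for each library from the median ratio of 7890 genes to their mean level, and 13699 genes with a mean of at least 1 scaled FPKM were tested with limma on log2(scaled FPKM + 1). A log2 difference below is axonal minus somatodendritic on this scale, which understates the change of genes at low levels, and a gene is called when its adjusted p (Benjamini-Hochberg over all genes tested) is under 0.05. By this test, 538 genes were higher in axons, or 3.93% of those tested, and 401 were lower, or 2.93%. At least a 2-fold difference was found for 510 of the higher and 359 of the lower genes. All 4 axonal libraries lay above all 4 somatodendritic libraries for 1057 genes (7.72%) and below them for 1153 (8.42%). The median log2 difference of all genes tested was -0.04. With FPKM as deposited this median was -0.48, and 344 genes were called higher and 1711 lower, so that 16.7% of the calls were higher against 57.3% after scaling and 44.1% with upper-quartile scaling. Of the genes called after scaling, 341 of the higher and all 401 of the lower were also called with FPKM as deposited. The counts also depended on single libraries. They rose to 825 higher and 736 lower without axonal replicate 4 and fell to 333 and 263 without axonal replicate 1. Without axonal replicate 2, 251 genes were lower. Leaving out somatodendritic replicate 1, 2, 3 or 4 left 266, 257, 275 or 346 higher genes and 108, 108, 105 or 195 lower genes. Counts of calls in gene groups moved in the same way, and their lowest and highest values without 1 library are given beside them, the highest being without axonal replicate 4 unless another library is named.

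**Figure D1:**
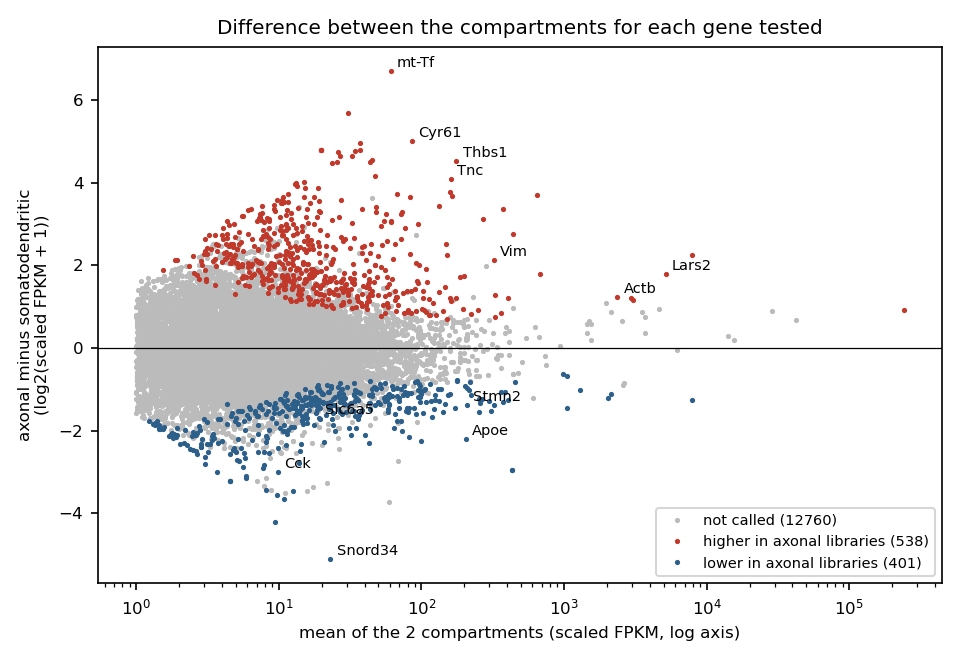
Log2 difference of each gene tested (vertical axis, axonal minus somatodendritic, log2(scaled FPKM + 1)) against its mean level in both compartments (horizontal axis, scaled FPKM, log axis), with 538 genes called higher in red, 401 called lower in blue and all others in grey. Called genes lie on both sides of the line at 0, and most of the genes tested are grey.

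Protein-coding genes were ranked among those called without overlap whose higher mean reached 10 scaled FPKM. Those with the largest differences in the axonal direction included several for matricellular and contractile proteins. Cyr61 (ENSMUSG00000028195, chromosome 3, 145646971 to 145649985 of GRCm38), a matricellular growth regulator of the CCN family, was at 140.1, 172, 263 and 91.4 scaled FPKM in axonal libraries 1 to 4 and at 3.78, 1.89, 3.34 and 8.39 in somatodendritic libraries 1 to 4. The groups did not overlap, and the log2 difference was 5.0 ± 0.40 (SE, adjusted p = 0.000217) in limma. Its family member Ctgf, also known as connective tissue growth factor, was at 75.5, 77.2, 82.1 and 19 in axons, lowest in replicate 4, and at 2.76, 0, 0.677 and 2.96 in the somatodendritic compartment, a difference of 4.65 ± 0.57 (SE, adjusted p = 0.00195) in limma. Wisp1, another CCN gene, differed by 3.87. The thrombospondins Thbs1 and Thbs2, secreted glycoproteins that bind matrix and integrins, differed by 4.53 and 3.97. Thbs1 (ENSMUSG00000040152, chromosome 2, 118111876 to 118127133) was at 348, 514, 278 and 208 in axons against 9.95, 9.61, 8.88 and 31.3 in cell bodies, where replicate 4 was highest. Tenascin C (Tnc), a matrix glycoprotein of developing tissue, was at 326, 401, 287 and 206 against 16.8, 15.7, 15.5 and 17.7, with no overlap and a difference of 4.10 ± 0.23 (SE, adjusted p = 2.16e-05) in limma. All of these calls held under each alternative setting and without each library in turn.

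Other genes with the largest axonal excess belong to different functions. Fanci, a DNA repair protein of the Fanconi anaemia pathway, was at 26.5, 11.2, 36.2 and 132 in axons, highest in replicate 4, and at 0.341, 0, 0.542 and 0.495 in the somatodendritic libraries. Its log2 difference was 4.76 ± 0.62 (SE, adjusted p = 0.00223) in limma. Pdlim1, an adaptor that binds alpha-actinin, differed by 4.55, and Cnn2, a calponin that binds actin, by 4.17. Nupr1, a small stress-induced nuclear protein, was at 55.5, 27.6, 6.09 and 14.7 in axons and listed at 0 in somatodendritic libraries 1 to 3.

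**Figure D2:**
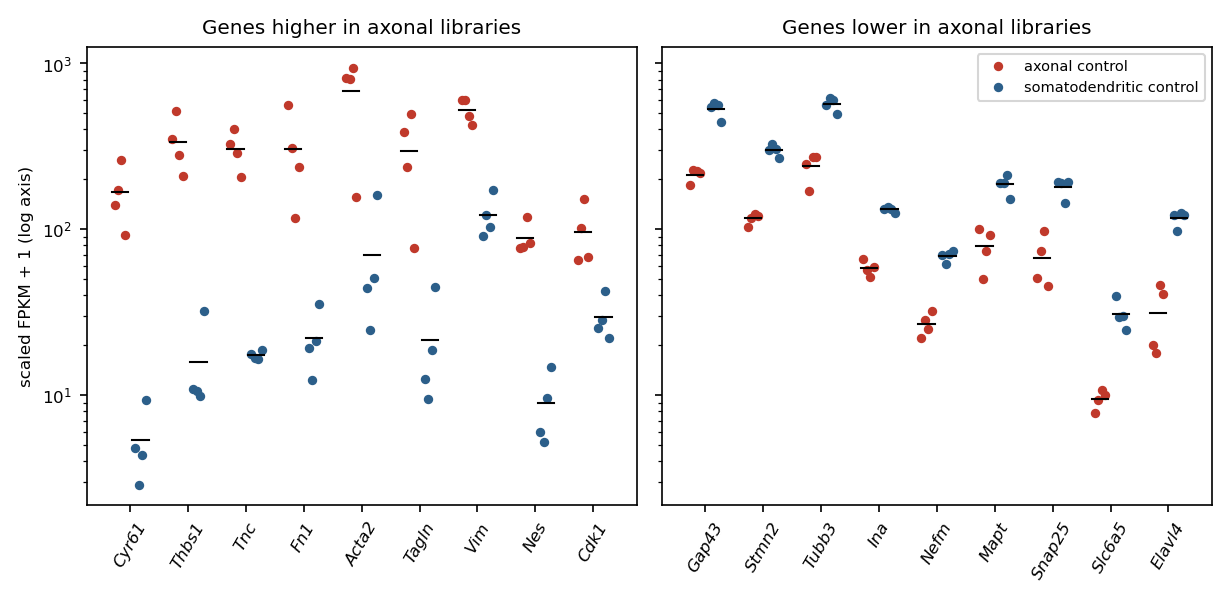
Level of 18 genes in each control library (vertical axis, scaled FPKM + 1, log axis), with 1 point per library, axonal in red and somatodendritic in blue, and a bar at the mean of each group. The points of the groups do not overlap, except for Acta2, where axonal replicate 4 lies below somatodendritic replicate 4.

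Genes of the same kinds were then counted over 6 families chosen by symbol after these values were seen, so that the counts describe the families and are no independent evidence. Of 24 actomyosin and contractile genes tested, 18 were higher in axons (75% beside 3.93% of all genes) and none was lower, with a median log2 difference of 2.63 beside -0.04 for all genes. Of 22 collagens tested, 10 were higher (median 1.87), as were 3 of 6 laminins (2.24), 5 of 11 integrins (1.67), 5 of 6 CCN and thrombospondin genes (4.25) and 7 of 13 annexin and S100 genes (2.01). S100a1 was the only called member of these families that was lower, at -2.74, and no member was lower without axonal replicate 1 or somatodendritic replicate 2, 3 or 4. Without 1 library in turn, 15 (without somatodendritic replicate 1 or 2) to 21 contractile genes were called, 7 (without somatodendritic replicate 1, 2 or 3) to 12 (without axonal replicate 3) collagens, 3 to 4 laminins, 4 to 5 integrins, 5 CCN and thrombospondin genes and 5 (without somatodendritic replicate 2 or 3) to 9 annexin and S100 genes.

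Single contractile and matrix genes showed how evenly the libraries took part. Acta2, smooth muscle actin, was at 819, 805, 941 and 155 in axonal libraries 1 to 4 and at 43.2, 23.7, 49.6 and 159 in somatodendritic libraries 1 to 4. Axonal replicate 4 thus lay just below somatodendritic replicate 4 and far below the other axonal libraries, and the log2 difference was 3.36 ± 0.63 (SE, adjusted p = 0.0117) in limma. Tagln, an actin cross-linking protein, was at 384, 236, 492 and 76.7 against 11.6, 8.45, 17.8 and 43.8, again lowest in axonal replicate 4 and highest in somatodendritic replicate 4 within the groups, which did not overlap. Filamin A (Flna) was at 517, 381, 486 and 552 against 50.7, 37.5, 56.7 and 80.8, with axonal replicate 4 highest, and differed by 3.12 ± 0.24 (SE, adjusted p = 0.000217) in limma. The non-muscle myosin heavy chain Myh9 differed by 3.01, caldesmon (Cald1) by 3.74 and vinculin (Vcl), which links integrins to actin, by 2.62.

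Fibronectin (Fn1), a matrix ligand of integrins, was at 561, 309, 116 and 237 in axonal and at 18.2, 11.3, 20.1 and 34.6 in somatodendritic libraries, a difference of 3.68 ± 0.45 (SE, adjusted p = 0.00195) in limma. Sparc, a matrix protein that binds collagen, was at 657, 858, 463 and 1068 against 89.1, 87.5, 90.0 and 176. The fibrillar collagen Col1a1 differed by 3.51 and the basement membrane collagen Col4a1 by 3.66. The integrin subunit Itgb1 was at 63.7 to 114 in axons and 19 to 31.6 in cell bodies. The hyaluronan receptor Cd44 differed by 3.58, and Igfbp2, which binds insulin-like growth factors, by 3.45. The groups did not overlap for any of these genes.

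Markers of other cell types were measured beside these genes. Of 9 fibroblast or meningeal markers, 4 were tested, and 2, Fn1 and Col1a1, were higher in axons (50% beside 3.93% of all genes). These genes are also among the matrix genes above. The summed level of the list was 154 to 628 scaled FPKM in axons and 13 to 44.4 in the somatodendritic compartment. Most of this sum was Fn1. All 4 tested members had a log2 difference above 0, with a median of 2.86. Col1a1 was at 42.9, 39.6, 27.2 and 13.8 in axonal and 1.03, 0.646, 0.952 and 5.77 in somatodendritic libraries 1 to 4, and Col1a2 at 8.42, 2.87, 0 and 0 against 0, 0, 0.211 and 1.58. Of the members below the limit for testing, Lum was listed at 0 in all axonal libraries and at 0.738, 0, 0 and 0 in cell bodies, Col3a1 was at 3.40, 1.54, 0 and 0 against 0, 0, 0 and 0.255 and Dcn at 1.51, 0, 1.41 and 0 against 0, 1.07, 0 and 1.58. Postn, another marker, was at 9.64, 3.21, 9.07 and 0 in axons and listed at 0 in all somatodendritic libraries. The summed astrocyte and radial glia markers were at 305, 192, 294 and 833 in axonal libraries 1 to 4 and 330 to 369 in the somatodendritic group. Of 10 tested, 1, Nes, was higher (10% beside 3.93% of all genes). The log2 difference of 7 of the 10 was below 0, and the median was -0.40. The part of these cell types in the matrix and contractile genes was not tested.

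The contractile genes were examined for a shared sequence, since many are known targets of serum response factor, which binds a 10-base motif called the CArG box. The windows run from 250 bases before to 50 bases after the RefSeq gene start on GRCm38.p6, and both strands were searched. A CArG box stood in 4 of the 22 contractile genes that have a window, or 18.2%. It stood in 3.16% of the windows of genes called higher, in 1.20% of those of genes called lower, in 1.61% of those of protein-coding genes tested and in 1.63% of all 32851 windows. The search was added after the contractile genes had been counted. The boxes are shown with 10 bases on either side, 5′ to 3′ on the strand of the gene, with the box in capitals.
Cnn2: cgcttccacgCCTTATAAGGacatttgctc
Myl6: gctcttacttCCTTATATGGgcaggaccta
Myl9: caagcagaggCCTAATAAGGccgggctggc
Vcl: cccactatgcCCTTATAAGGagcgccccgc
The stretches lie at chr10:79988534-79988563 on the plus strand (Cnn2), chr10:128493040-128493069 on the minus strand (Myl6), chr2:156775293-156775322 on the plus strand (Myl9) and chr14:20929161-20929190 on the plus strand (Vcl), and the boxes begin 56, 50, 161 and 227 bases before the gene start. Of these genes, Cnn2, Myl9 and Vcl were called higher in axons with log2 differences of 4.17, 3.07 and 2.62. Myl6, a myosin light chain, was at 164, 143, 225 and 107 in axons and 87.5, 97.1, 81.9 and 76.8 in cell bodies and was not called, with a log2 difference of 0.84 ± 0.23 (SE, adjusted p = 0.0546) in limma. Myl9, a regulatory light chain, was at 152, 153, 136 and 11.6 against 10.3, 3.66, 6.18 and 20.3, so that axonal replicate 4 lay within the somatodendritic range, and its call was lost in 10 of 19 alternatives.

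Calls among genes of cell division were all in the axonal direction. Of 38 tested, 11 were higher and none was lower, which is 28.9% beside the 3.93% of all genes tested, and the median log2 difference was 1.20. Cdk1, the kinase that drives entry into mitosis, was at 64.6, 101, 150.4 and 67.4 in axons and 24.2, 27.3, 41.6 and 21 in cell bodies. The groups did not overlap, and the difference was 1.68 ± 0.32 (SE, adjusted p = 0.0116) in limma. Top2a, a topoisomerase of dividing cells, was at 20.8, 19.3, 20.7 and 21.6 against 5.82, 8.73, 4.61 and 8.11, and Mki67, the Ki-67 antigen, at 15.9, 15.9, 29.5 and 30.5 against 6.61, 3.42, 7.39 and 11.1, both with all axonal libraries above. Cenpf, a kinetochore protein, had the largest difference of the list at 2.40, and the cyclin Ccnd1 differed by 2.31. The values of Cenpf rested on 7.4 implied fragments over all axonal and 0.74 over all somatodendritic libraries. The count of calls was 3 without somatodendritic replicate 3, 4 without replicate 1, 5 without replicate 2, 7 on the deposited scale and 14 at most. The summed level of 6 cycling-cell markers, which include Cdk1, Top2a and Mki67, was 121 to 247 in axons and 48.4 to 63.6 in the somatodendritic libraries. The part of dividing cells in these differences was not tested. Top2a and Mki67 lost their calls in 2 of 19 and 7 of 19 alternatives.

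Among 13 immediate early genes tested, 4 were higher and none was lower (30.8% beside 3.93%, median 1.02). Without 1 library there were 1 (without axonal replicate 2 or somatodendritic replicate 1, 2 or 3) to 6 calls, and 2 on the deposited scale. Fosl2, a subunit of the AP-1 transcription factor, was at 19.4, 14.7, 17.2 and 12.5 in axons and 1.31, 0.981, 0.578 and 1.21 in cell bodies, a difference of 3.07 ± 0.35 (SE, adjusted p = 0.00125) in limma. Klf4, Junb and Dusp1 differed by 2.70, 2.16 and 1.52. These were low in level, with axonal means of 9.15, 7.39 and 17.3 scaled FPKM. Jun, which had the highest mean over both compartments, was at 9.07, 18.9, 20.5 and 16.2 against 8.39, 17, 10.6 and 10.2 and was not called. Its log2 difference was 0.44 after scaling and -0.05 with FPKM as deposited.

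Transcripts of the translation apparatus were next. Of 81 cytosolic ribosomal protein genes tested, 19 were higher in axons and none was lower, which is 23.5% beside 3.93%. Without 1 library in turn the count ran from 8, without somatodendritic replicate 1, to 28, and limma without a trend called 6. The axonal libraries lay above all somatodendritic libraries for 34 of them, beside 7.72% of all genes. The median log2 difference was 0.63 for the 48 large subunit genes and 0.71 for the 33 small subunit genes. Summed over the large subunit, the level was 4359 to 5934 scaled FPKM in axons and 2944 to 3334 in cell bodies, and over the small subunit 2444 to 3443 against 1564 to 1744, so that neither sum overlapped after scaling. As a share of summed FPKM, these genes were at 1.17, 1.335, 0.929 and 0.906% in axons and 0.880 to 0.996% in cell bodies, which overlapped. With FPKM as deposited, the medians were 0.11 and 0.20 and 1 and 4 genes were called higher. Relative to the median of all genes these medians were 0.59 and 0.68, against 0.67 and 0.76 after scaling.

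Rps3, a small subunit protein at the mRNA entry channel, had the largest called difference of the family. It was at 207, 213, 182 and 87.1 in axons and 45, 31.5, 43.8 and 53.1 in cell bodies, without overlap, and differed by 1.91 ± 0.30 (SE, adjusted p = 0.00504) in limma. Rpl10a, which sits in the large subunit, was at 63.3, 55.8, 33 and 23.6 against 16.3, 12, 14.5 and 15.5 and differed by 1.43 ± 0.33 (SE, adjusted p = 0.0259), a call lost in 9 of 19 alternatives. The best expressed member, Rpl41, was at 1647, 2195, 1398 and 2177 against 1138, 1006, 1358 and 1140. All axonal libraries lay above, yet with an adjusted p of 0.0645 in limma it was not called. Ribosomal protein genes have many processed pseudogenes, and how the authors' counting divided reads among such copies is not given in the sources used here. Of 1077 pseudogenes tested, 61 were higher and 10 lower, or 5.66% and 0.929% beside 3.93% and 2.93% of all genes, and on the deposited scale 29 were higher and 61 lower.

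Factors of initiation and elongation followed. Of 39 initiation factor genes, 2 were higher (Eif3l at 1.04 and Eif4a1 at 0.90) and none was lower, a share of 5.13% that lies near the 3.93% of all genes, and the median was 0.26. The count was 0 without axonal replicate 1 and with any single somatodendritic library left out and at most 5, and with FPKM as deposited none was higher and 4 were lower. Of 14 elongation and release factor genes, Eef2, which moves the ribosome along the mRNA, was higher at 464, 476, 331 and 395 against 253, 251, 237 and 238 (log2 difference 0.75 ± 0.17 SE, adjusted p = 0.0262 in limma). Eef1a2, the form of elongation factor 1 alpha found in mature neurons and muscle, was lower at 28.6, 49.4, 54.5 and 71.5 against 101, 107, 116 and 85.8 (log2 difference -1.06 ± 0.27 SE, adjusted p = 0.0422 in limma). The other form, Eef1a1, was at 1938, 1828, 1412 and 1409 against 1240, 1389, 1325 and 1131, with all axonal libraries above but no call. Both list medians turned negative with FPKM as deposited, at -0.25 and -0.06, where the median of all genes was -0.48. The calls of Eif3l, Eef2 and Eef1a2 were each lost in 10 of 19 alternatives.

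The mitochondrially encoded mRNAs and the nuclear genes for the same complexes had medians of opposite sign. All 13 mitochondrially encoded mRNAs had a log2 difference above 0, with a median of 0.94, and 4 were called higher (30.8% beside 3.93%). Subunit 2 of cytochrome c oxidase, mt-Co2, was at 3457, 2427, 4088 and 6912 in axonal libraries 1 to 4 and at 1480, 1861, 1791 and 1643 in somatodendritic libraries 1 to 4, a difference of 1.22 ± 0.27 (SE, adjusted p = 0.0253) in limma. The other called genes were mt-Atp8 at 1.28, mt-Nd4l at 1.20 and mt-Co3 at 1.16. The most abundant, mt-Co1, was at 4430, 3299, 4830 and 12931 against 2694, 3237, 2862 and 2669, with no overlap but an adjusted p of 0.132 in limma. Axonal replicate 4 was far above the other axonal libraries, and axonal replicate 2 close to the somatodendritic level. The mitochondrial rRNA mt-Rnr1 was likewise at 34955, 25658, 37740 and 128051 against 29283, 33215, 26769 and 25772 and was not called. Without axonal replicate 4 the median of the 13 mRNAs was 0.52 and 4 were called. No call was left without axonal replicate 3 or with any single somatodendritic library left out, 1 was left without axonal replicate 1, and 7 were made without axonal replicate 2. Without scaling the median was 0.42 and none was called, and the calls of mt-Co2, mt-Atp8, mt-Nd4l and mt-Co3 were lost in 8 of 19, 9 of 19, 14 of 19 and 11 of 19 alternatives.

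Of 80 nuclear genes for respiratory complexes I to IV and ATP synthase, none was higher, 4 were lower (5%, beside 2.93% of all genes) and the median was -0.28. No call was left without somatodendritic replicate 1, 3 or 4, and at most 8 were made. The median was -0.26 for complex I, -0.35 for complexes II and III, -0.24 for cytochrome c oxidase and -0.34 for ATP synthase. Ndufb3 of complex I was at 3.55, 7.50, 0 and 3.98 in axons and 22.1, 22.6, 11.8 and 17.7 in cell bodies, a difference of -2.35 ± 0.59 (SE, adjusted p = 0.0372) in limma. Ndufa5 and Ndufv3, also of complex I, differed by -1.08 and -1.02, and Uqcr11 of complex III by -0.99. The calls of Ndufb3, Ndufv3 and Uqcr11 were lost in 8 of 19, 13 of 19 and 12 of 19 alternatives. Ndufv3 was also the most abundant gene of complex I, at 144, 124, 87.2 and 241 against 265, 287, 306 and 277, without overlap. The most abundant genes of the other complexes were not called, and their groups overlapped. Cox8a was at 320.2, 294, 236 and 385 against 359.6, 374, 381 and 321, Uqcrq at 117, 131, 95.5 and 91.7 against 121, 151, 137 and 118 and Atpif1, an inhibitor of ATP synthase, at 113, 247, 124 and 293 against 256, 343, 299 and 256. On the deposited scale, 8 complex I genes, 7 genes of complexes II and III, 2 of cytochrome c oxidase and 7 of ATP synthase were lower.

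**Figure D3:**
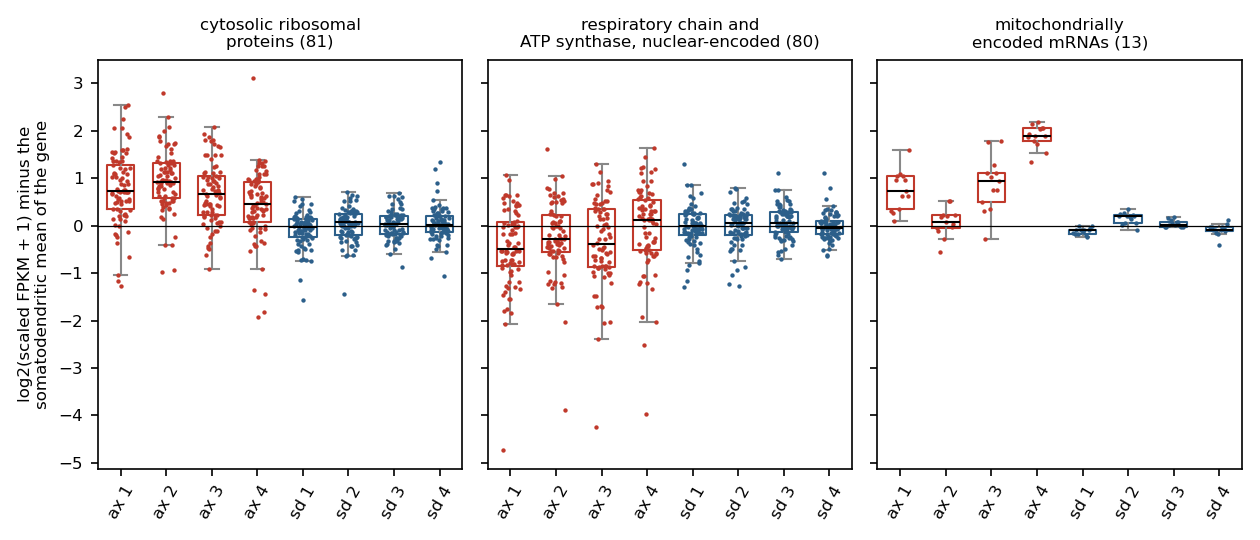
Level of each gene in each library relative to its somatodendritic mean (vertical axis, log2(scaled FPKM + 1)), with 1 point per gene, a box for the quartiles and a bar for the median, for axonal (ax) and somatodendritic (sd) replicates 1 to 4. Ribosomal protein genes have medians above 0 in all 4 axonal libraries, nuclear respiratory genes around or below 0, and the 13 mitochondrially encoded mRNAs highest in axonal replicate 4 and near 0 in axonal replicate 2.

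Enzymes of energy metabolism outside the respiratory chain were counted next. Of 17 tricarboxylic acid cycle genes, Idh2, the mitochondrial NADP-dependent isocitrate dehydrogenase, was higher at 69.7, 38.4, 37.3 and 24.4 against 4.24, 9.73, 5.72 and 8.46 (log2 difference 2.39 ± 0.37 SE, adjusted p = 0.00468 in limma), while 14 of the 17 had a log2 difference below 0 and the median was -0.29. Of 17 glycolysis genes, Eno1 was higher at 1.54 and the muscle-type phosphofructokinase Pfkm lower at -1.19, or 5.88% each way beside 3.93% and 2.93%. These calls were lost in 4 of 19 and 8 of 19 alternatives. On the deposited scale, 5 genes of the cycle and 4 of glycolysis were lower. Aldoa, the best expressed, was at 212, 204, 235 and 157 against 169.6, 219, 192 and 208, with the groups overlapping.

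Cytoskeletal genes were called in both directions. Actb, beta-actin, was among the most abundant nuclear mRNAs of axons at 4168, 4394, 3197 and 1744 scaled FPKM against 1264, 1407, 1377 and 1386 in cell bodies. All axonal libraries lay above, replicate 4 least, and the difference was 1.23 ± 0.26 (SE, adjusted p = 0.0213) in limma, a call lost in 10 of 19 alternatives. Profilin 1 (Pfn1), which feeds actin to growing filaments and is linked to amyotrophic lateral sclerosis (ALS), differed by 0.92, a call lost in 14 of 19 alternatives, and the actin-bundling Fscn1 by 0.80. Other genes of the same list were lower. Gap43, a growth cone membrane protein, was at 185, 226, 224 and 216 against 547, 577, 557 and 445 (log2 difference -1.32 ± 0.16 SE, adjusted p = 0.00198 in limma), and Basp1, a related membrane protein, at 61.5, 58.9, 75.1 and 95.4 against 192, 221, 222 and 204 (log2 difference -1.54 ± 0.20 SE, adjusted p = 0.00223 in limma). The collapsin response mediator Crmp1 differed by -1.52, Dpysl2 of the same family by -1.13 and the actin-sequestering peptide Tmsb10 by -0.68, the last a call lost in 9 of 19 alternatives. Of 30 actin and growth cone genes, 3 were higher (10.0%) and 7 lower (23.3%), beside 3.93% and 2.93% of all genes, with a median of -0.26. Without scaling, none was higher and 12 were lower. None was higher without axonal replicate 1 or 2 or with any single somatodendritic library left out, and the lower count ran from 3, without somatodendritic replicate 3, to 10.

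Of 6 intermediate filament genes tested, 2 were higher and 2 lower, or 33.3% each beside 3.93% and 2.93% of all genes, and 2, the neurofilament chains Nefl and Nefh, were not called. Vim, vimentin, was at 598, 598, 479.6 and 425 in axons and 90.4, 121, 103 and 172 in cell bodies (log2 difference 2.13 ± 0.23 SE, adjusted p = 0.000895 in limma), and Nes, nestin, at 76.2, 76.7, 118 and 81.8 against 5.0, 4.18, 8.66 and 13.8 (log2 difference 3.42 ± 0.35 SE, adjusted p = 0.000895 in limma). Neither pair of groups overlapped. Nefm, the medium neurofilament chain, was at 21.1, 27.5, 24.2 and 31 against 68.9, 60.9, 70.2 and 73.2 (log2 difference -1.37 ± 0.21 SE, adjusted p = 0.00476 in limma), and Ina, internexin, at 65.1, 55.6, 50.6 and 58.2 against 132, 135, 132 and 124 (log2 difference -1.18 ± 0.18 SE, adjusted p = 0.0044 in limma), with all axonal libraries below. These calls held under each alternative tried.

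Tubulins were lower in 4 of 14 genes tested and higher in 1, or 28.6% and 7.14% beside 2.93% and 3.93%. Without scaling, 8 were lower. Tubb3, the neuronal beta-tubulin, was at 246, 170.0, 271 and 272 against 564, 622, 598 and 494 (log2 difference -1.26 ± 0.19 SE, adjusted p = 0.00468 in limma). Tuba4a, an alpha-tubulin linked to ALS, was at 3.95, 4.18, 3.69 and 2.96 against 18.7, 18.2, 15.9 and 18 without overlap, a difference of -2.0 ± 0.29 (SE, adjusted p = 0.00389) in limma. Tubb4a and Tuba1a differed by -1.72 and -0.64, and the call of Tuba1a was lost in 8 of 19 alternatives. Tubb6, a beta-tubulin that is not specific to neurons, was at 116, 116, 116 and 12.1 against 6.10, 4.91, 3.21 and 12.1. It was about equal in axonal replicate 4 and somatodendritic replicate 4, and its call was lost in 5 of 19 alternatives. Of 23 microtubule-associated proteins and stathmins, 6 were lower (26.1% beside 2.93%) and none was higher, with a median of -0.84. The count was 2 without somatodendritic replicate 1 or 2, 3 without replicate 3, at most 10, and 17 with FPKM as deposited, and limma without a trend called 1. Stmn2, a stathmin of growing axons, was at 102, 116, 123 and 119.7 against 302, 324, 306 and 269 (log2 difference -1.37 ± 0.16 SE, adjusted p = 0.00156 in limma), and Mapt, tau, differed by -1.27 and Map1b by -0.78. Map2, the dendritic microtubule protein, was at 174, 84.1, 109.5 and 323 against 239.9, 331, 289 and 214 and was not called, with axonal replicate 4 within the somatodendritic range.

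A list of 25 mRNAs known to be localised to axons had calls in both directions. Actb and Kpnb1, an importin that carries injury signals in axons, were higher (1.23 and 1.30), and Gap43, Mapt and Cdc42 were lower (-1.32, -1.27 and -0.87). The median was 0.02, and the calls were 8% and 12% of the list beside 3.93% and 2.93%. Without 1 library, 0 (without somatodendritic replicate 1 or 3) to 3 were higher and 2 (without somatodendritic replicate 1, 2 or 3) to 5 lower, and with FPKM as deposited none was higher and 8 were lower. The call of Kpnb1 was lost in 4 of 19 alternatives. Of 22 mRNAs known from dendrites, 4 were lower and none was higher, with a median of -0.75. The lower calls were all lost without axonal replicate 1 or 2 and with any single somatodendritic library left out, and 8 were lower on the deposited scale. Among those lower after scaling were the glutamate receptor subunit Gria2 (-1.27) and the scaffold Shank1 (-1.32).

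Calls among synaptic genes were all in the somatodendritic direction. Of 34 presynaptic genes tested, 13 were lower, which is 38.2% beside 2.93% of all genes, and none was higher, with a median of -0.98. Without 1 library in turn 6, without somatodendritic replicate 3, to 16 were lower, and 24 were with FPKM as deposited. Their summed level was 762 to 1003 scaled FPKM in axons and 1674 to 1957 in cell bodies. Snap25, a SNARE protein of vesicle fusion, was at 49.6, 73, 97.3 and 44.8 in axons and 192, 189.5, 144 and 193 in cell bodies (log2 difference -1.48 ± 0.26 SE, adjusted p = 0.00821 in limma). The clathrin adaptor Snap91 was at 7.03, 19.3, 17.9 and 13.4 against 55.2, 55.4, 55.6 and 52.9 (log2 difference -1.94 ± 0.30 SE, adjusted p = 0.00499 in limma). The vesicle SNARE Vamp2 differed by -1.60, synaptophysin (Syp) by -1.54, synapsin 1 (Syn1) by -1.36 and the calcium sensor Syt1 by -1.06, the last a call lost in 9 of 19 alternatives. All axonal libraries lay below for 20 of the 34 genes, beside 8.42% of all genes.

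Of 43 postsynaptic receptor and scaffold genes, 9 were lower (20.9%) and none was higher, with a median of -0.94. Leaving out any single somatodendritic library left 3, and the count reached 11 at most and 24 with FPKM as deposited. The NMDA receptor subunit Grin3a was at 4.01, 2.31, 2.38 and 3.25 against 10.2, 12.7, 9.83 and 10.1 (log2 difference -1.57 ± 0.33 SE, adjusted p = 0.0193 in limma), and the glycine receptor subunit Glrb differed by -1.24. The scaffold Dlg4 was at 26.8, 38, 122 and 124 against 129, 120.4, 139.7 and 119. It split the axonal libraries, with replicates 3 and 4 at the somatodendritic level, and was not called. Of 43 voltage-gated channel genes, 2 were lower (4.65% beside 2.93%, 1 to 3 without 1 library and 13 with FPKM as deposited), the sodium channel Scn2a1 (-1.84) and the calcium channel subunit Cacnb1 (-1.31), and the median was -0.66.

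**Figure D4:**
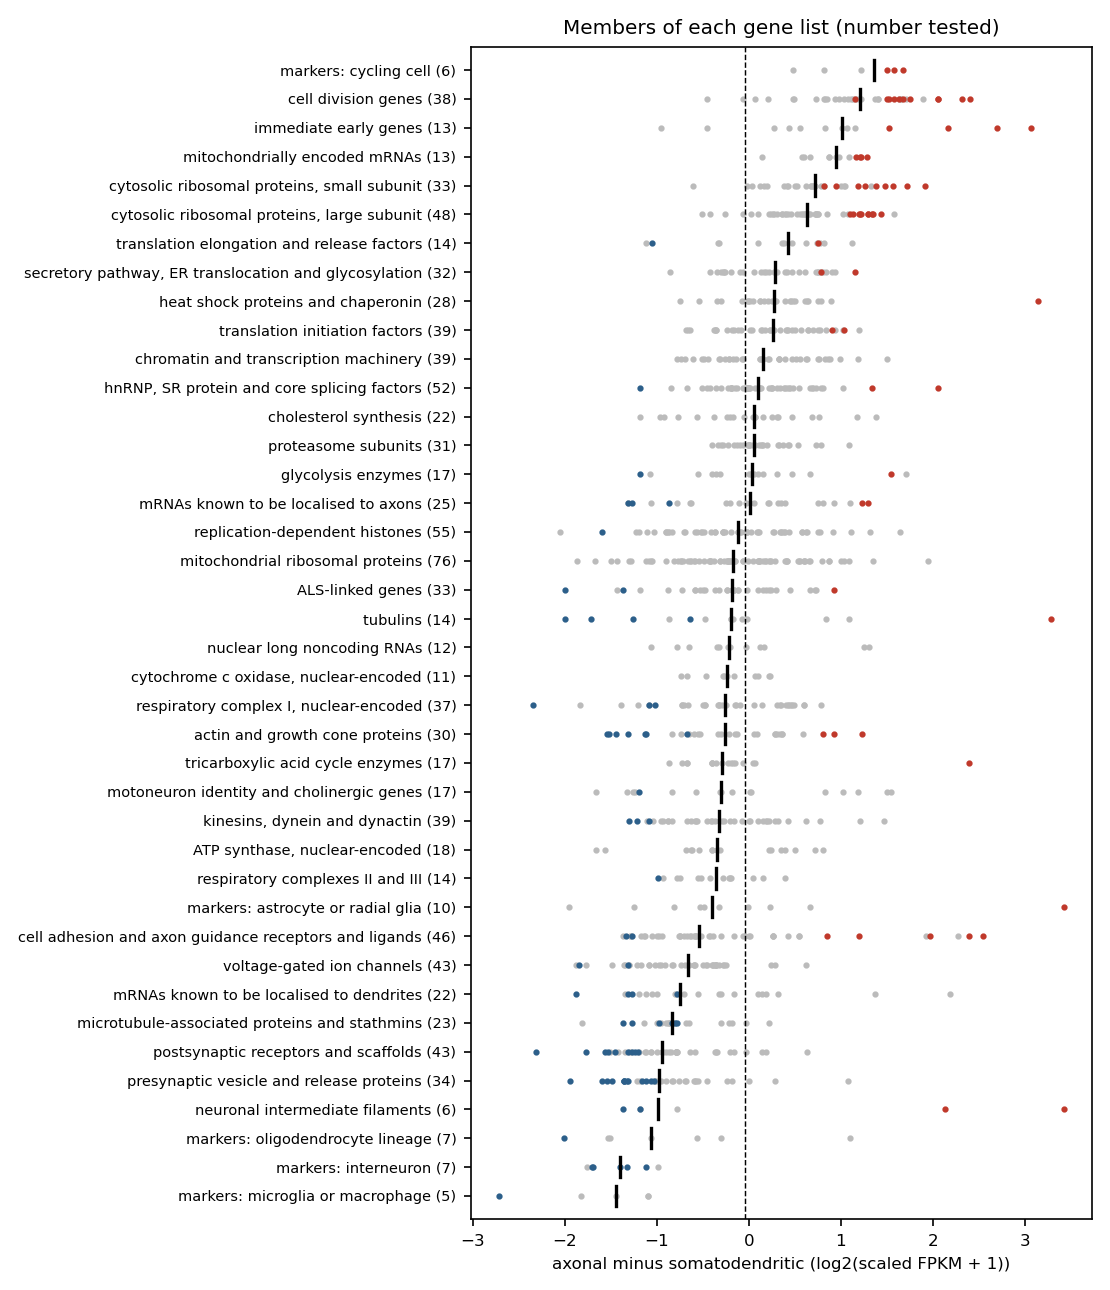
Log2 difference (horizontal axis, axonal minus somatodendritic, log2(scaled FPKM + 1)) of each tested member of the gene lists with at least 5 members tested, called higher in red, called lower in blue and not called in grey, with a black bar at the median of the list and a dashed line at the median of all genes, -0.04. Cell division, immediate early, mitochondrially encoded and ribosomal protein genes have medians above the line, and synaptic, channel and microtubule genes below it.

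Markers of interneurons, neurons of the spinal cord other than motoneurons, were also lower in axons. The list holds markers of inhibitory neurons and also Slc17a6, a marker of excitatory neurons, and not all its members are specific to interneurons. Of 7 interneuron markers, 5 were lower (71.4% beside 2.93% of all genes) and none was higher, with a median of -1.40. Only 1 call was left without axonal replicate 2 or somatodendritic replicate 1, 2 or 3, and all 7 were called without axonal replicate 3. Slc6a5, the glycine transporter of glycinergic neurons, was at 6.78, 8.32, 9.67 and 9.06 in axons and 38.6, 28.6, 29 and 23.7 in cell bodies (log2 difference -1.70 ± 0.27 SE, adjusted p = 0.00496 in limma). Gad1, which makes GABA, was at 21, 12.6, 19.4 and 16.3 against 35.2, 31.1, 46.5 and 41.9, and Slc32a1, which loads both transmitters into vesicles, at 10.6, 5.11, 18 and 4.35 against 25.2, 31.5, 33.5 and 27.4. The calls of Gad1 and Slc32a1 were lost in 7 of 19 and 6 of 19 alternatives. The summed level of the list was 41.7 to 98.4 in axons and 145 to 172 in cell bodies. The part of interneurons in the synaptic genes was not tested.

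Called markers of the oligodendrocyte lineage and of microglia were lower in axons, 1 of 7 tested (14.3%) and 1 of 5 (20%), beside 2.93% of all genes. Olig1, a factor of the oligodendrocyte lineage, was at 8.73, 5.27, 5.81 and 21 against 44.4, 44.1, 44.7 and 24.8 (log2 difference -2.01 ± 0.41 SE, adjusted p = 0.0164 in limma), the only called member of 7 tested and not called without somatodendritic replicate 1, 2 or 3. Tyrobp, an adaptor of microglia, was at 0, 0, 4.47 and 0 against 8.15, 10.2, 8.0 and 10.1, the only called one of 5 and lost without axonal replicate 1 or 2 or with any single somatodendritic library left out, and Lyz2, the lysozyme of myeloid cells, at 8.55, 2.26, 0 and 2.40 against 13.3, 19.7, 19.6 and 12.9. Apoe, a lipid carrier of glia, was at 88.2, 46.6, 42.5 and 124 against 302, 483, 366 and 192 (log2 difference -2.20 ± 0.37 SE, adjusted p = 0.00692 in limma). Fabp7, a fatty acid binding protein of radial glia, was at 43.8, 42.7, 69 and 284 against 136, 114, 129 and 181. It was below the somatodendritic range in axonal replicates 1 to 3 and above it in replicate 4, and was not called. Summed Schwann cell markers were at 6.45 to 19 in axons and 3.90 to 15.5 in cell bodies, with no call among 3 tested, beside 3.93% and 2.93% of all genes called higher and lower.

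The protein-coding genes with the largest differences in the somatodendritic direction were mostly of low level. These were ranked among called genes without overlap whose somatodendritic mean reached 10 scaled FPKM. Gm10401, a predicted gene, was at 0.675, 0, 0 and 0.337 in axons and 12.3, 36.7, 4.16 and 10.9 in cell bodies (log2 difference -3.44 ± 0.58 SE, adjusted p = 0.00692 in limma). Rwdd2a was at 0, 0, 0 and 2.37 against 6.46, 16.2, 13.3 and 8.64. Cck, the neuropeptide cholecystokinin, was at 0, 4.18, 3.68 and 0 against 13.4, 28, 11.5 and 18.6, and Tsen15, a subunit of the tRNA splicing endonuclease, at 0, 3.69, 0 and 0 against 9.88, 11.7, 6.26 and 13.1. The values of Tsen15 rested on 0.064 implied fragments over all axonal and 4.77 over all somatodendritic libraries. Cacng3, an auxiliary subunit of AMPA receptors, was at 4.04, 4.01, 5.72 and 0 against 27.6, 31.8, 18.1 and 19.7. The others by the same rule were Stard10 (-2.53), Tvp23a (-2.52), Vstm2l (-2.51), Gm20716 (-2.49) and Lyz2 (-2.41). Calls lost in some alternatives were those of Cck, Tsen15, Cacng3, Stard10, Tvp23a, Vstm2l, Gm20716 and Lyz2, in 2 of 18, 2 of 18, 3 of 19, 6 of 18, 6 of 18, 2 of 18, 10 of 19 and 9 of 18. Nnat, neuronatin, was among the most abundant somatodendritic mRNAs, at 425, 349.6, 501 and 1120 against 1567, 1729, 1546 and 1118. It differed by -1.45 ± 0.32 (SE, adjusted p = 0.0234) in limma, and axonal replicate 4 was level with somatodendritic replicate 4. This call was lost in 7 of 19 alternatives.

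Splicing regulators included a pair known to replace each other in neuronal development. Ptbp1, the polypyrimidine tract binding protein of non-neuronal cells and progenitors, was at 156, 173, 92.5 and 168 in axons and 26.8, 26, 41 and 45.2 in cell bodies (log2 difference 2.05 ± 0.27 SE, adjusted p = 0.0025 in limma). Ptbp2, its neuronal relative, was at 12.1, 14.5, 6.75 and 9.94 against 22.3, 32.5, 24.2 and 21.9 (log2 difference -1.18 ± 0.30 SE, adjusted p = 0.0382 in limma), and the groups of neither gene overlapped. Elavl4, a neuronal RNA-binding protein that stabilises mRNAs such as Gap43, was at 19.1, 16.9, 45.3 and 39.5 against 121, 96.7, 124 and 122 (log2 difference -2.02 ± 0.32 SE, adjusted p = 0.00504 in limma). Of 52 splicing factor genes, 2 were higher and 1 was lower, or 3.85% and 1.92% beside 3.93% and 2.93%, and the median was 0.09. On the deposited scale, 1 was higher and 6 were lower. The call of Ptbp2 was lost in 8 of 19 alternatives.

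Guidance and adhesion genes included both directions. Of 46 tested, 5 were higher (10.9%) and 2 lower (4.35%), beside 3.93% and 2.93% of all genes, with a median of -0.54. There were 2 higher calls without axonal replicate 2 or somatodendritic replicate 1, 2 or 3 and no lower call without these somatodendritic libraries, and up to 6 higher and 8 lower. On the deposited scale 3 were higher and 11 lower. Sema3c, a secreted semaphorin, was at 21.2, 23.4, 19.3 and 17 in axons and 1.15, 6.14, 1.67 and 3.15 in cell bodies (log2 difference 2.55 ± 0.41 SE, adjusted p = 0.00522 in limma). The netrin receptor Unc5b, the plexin Plxnb2, the secreted ligand Slit2 and the cadherin Cdh2 differed by 2.39, 1.96, 1.20 and 0.84. The neural adhesion molecules Cntn1 and Ncam2 were lower (-1.34 and -1.28), and the call of Cntn1 was lost in 4 of 19 alternatives. Ncam1, the best expressed of the list, was at 78.7, 119.6, 114 and 146 against 185, 166, 162 and 169, below in all axonal libraries but not called.

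The libraries were made from total RNA, and a large share of their FPKM was noncoding. Gm26924 (ENSMUSG00000098178, chromosome 17, 39846958 to 39848788), annotated as a lincRNA and known to share sequence with ribosomal RNA, was at 336728, 345396, 371450 and 213271 scaled FPKM in axonal and 169883, 174938, 161715 and 152867 in somatodendritic libraries 1 to 4. It alone made up 45.1, 49.2, 48.5 and 25.9% of the summed FPKM of axonal libraries and 33.2, 32.7, 31.5 and 31.7% of that of somatodendritic libraries. Axonal replicate 4 was thus below the somatodendritic range in share and above it in scaled level. Without mitochondrially encoded genes in the sum, its share of lincRNA, nearly all of it Gm26924, was 38.96%, above the 36.2 to 38.2% of somatodendritic libraries. The log2 difference of Gm26924 was 0.91 ± 0.24 (SE, adjusted p = 0.0448) in limma, a call lost in 14 of 19 alternatives. Gm15564, annotated as an antisense RNA, was at 1562, 999, 1593 and 619 against 49.2, 102, 165 and 59.7 (log2 difference 3.72 ± 0.40 SE, adjusted p = 0.000895 in limma). Lars2, mitochondrial leucyl-tRNA synthetase, was the most abundant nuclear protein-coding gene of axons at 9472, 7845, 9978 and 4996 against 2215, 2253, 2569 and 2027 (log2 difference 1.79 ± 0.22 SE, adjusted p = 0.00198 in limma). The Lars2 gene holds a stretch similar to ribosomal RNA, so that reads of ribosomal RNA and of Lars2 may not be told apart in these values.

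Mitochondrially encoded RNA made up 12.1, 8.92, 13.1 and 33.0% of the summed FPKM of axonal libraries and 12.2, 13.6, 11.9 and 11.9% of that of somatodendritic libraries. Nuclear protein-coding genes other than ribosomal protein genes made up 25.6% ± 1.82 (SD, n = 4) in axons and 35.7% ± 0.853 in cell bodies, with no overlap, and without mitochondrially encoded genes in the sum the shares were 31.1% and 40.7%. The miscellaneous RNA class was at 6.35, 5.31, 5.41 and 10.7% in axons and 10.6, 10.7, 11.9 and 11.3% in cell bodies. MicroRNA genes were at 1.02 to 2.34% in axons against 0.483 to 0.572% in cell bodies. These shares are of FPKM, which divides by length and so weights short RNAs heavily.

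**Figure D5:**
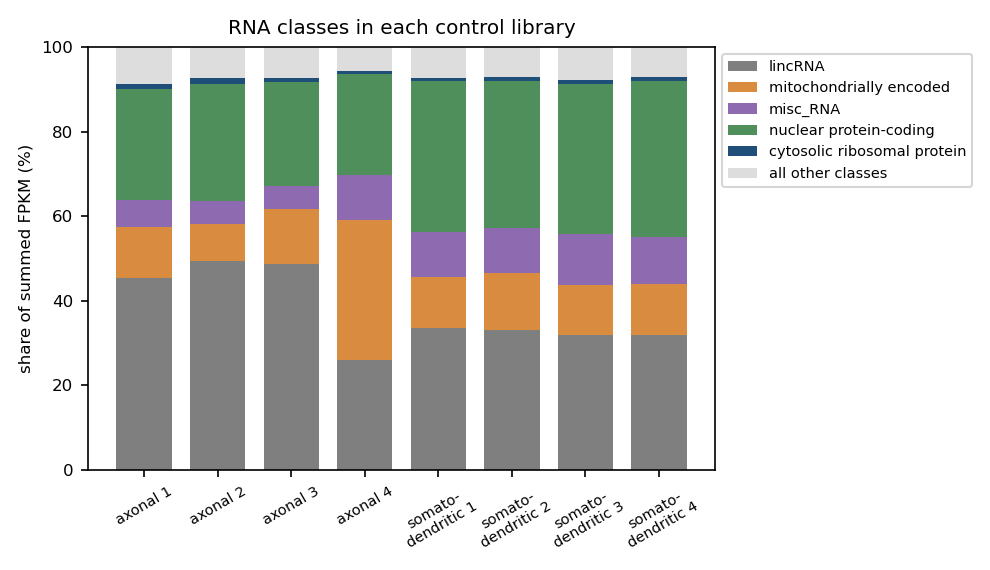
Share of summed FPKM (vertical axis, %) by RNA class in each of the 8 control libraries, with 1 bar per library. In axonal replicates 1 to 3 the lincRNA class, nearly all of it Gm26924, takes 45.3 to 49.4%, and in axonal replicate 4 mitochondrially encoded RNA takes 33.0%.

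Calls among small nuclear and nucleolar RNAs were few. Rn7sk, the RNA that holds the elongation factor P-TEFb inactive in the nucleus, was at 4464, 4658, 3368 and 6241 in axons and 10121, 11375, 11600 and 10878 in cell bodies (log2 difference -1.26 ± 0.20 SE, adjusted p = 0.00504 in limma). The box C/D small nucleolar RNAs Snord34 and Snord89 were listed at 0 in all axonal libraries and were at 21.9, 109, 12.4 and 40.5 and at 13.9, 17.4, 30.8 and 12.9 in somatodendritic libraries 1 to 4. Over all somatodendritic libraries their values rested on 5.46 and 6 implied fragments. Of 224 small nucleolar RNA genes tested, 8 were lower and 1 was higher, or 3.57% and 0.446% beside 2.93% and 3.93% of all genes, with a median of -0.83. Without somatodendritic replicate 4, 19 were lower, and on the deposited scale 16. Gm24265 and Gm24407, small nuclear RNA genes, were at 86.4, 101, 53.7 and 158 and 86.4, 101, 53.7 and 169 in axons and at 722, 1127, 574 and 605 and 733, 1114, 582 and 625 in cell bodies. Their near-identical values do not tell the copies apart. Of 55 small nuclear RNA genes, 3 were lower (5.45%) and none was higher, although the median was 0.44 and 6 were higher without somatodendritic replicate 1. The lincRNA Gm12371 was at 0, 0, 2.31 and 0 against 12.6, 14, 10.3 and 7.80.

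Long nuclear noncoding RNAs were not called by the test. Malat1, which is retained in nuclear speckles, was at 413, 353, 600.3 and 437 in axons and 537, 497, 557 and 672 in cell bodies. The groups overlapped, and the log2 difference was -0.35 ± 0.20 (SE, adjusted p = 0.323) in limma. Meg3, an imprinted long noncoding RNA, was at 109.7, 129, 258 and 65.7 against 133, 119, 169 and 172, with axonal replicate 3 highest and axonal replicate 4 lowest of all libraries. None of 12 nuclear long noncoding RNAs tested was called, beside 3.93% and 2.93% of all genes, and their median was -0.22. On the deposited scale and without axonal replicate 3, 2 were lower.

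Some mitochondrial tRNAs and 5S ribosomal RNA copies were higher in axons. The tRNA genes mt-Tf, for phenylalanine, and mt-Ta, for alanine, were at 79.6, 42.1, 186 and 179 and at 19.6, 41.5, 73.1 and 110.1 in axonal libraries 1 to 4 and listed at 0 in all somatodendritic libraries. Of 20 mitochondrial tRNA genes tested, 8 were higher (40% beside 3.93% of all genes) and none was lower, with a median of 2.72. Without 1 library the count was 3 to 5, highest without axonal replicate 2 or 3. The 5S rRNA copies Gm24312, n-R5s106 and n-R5s118 shared the values 45.5, 18, 42.4 and 51.1 in axons and 0, 0, 2.37 and 0 in cell bodies, and reads cannot be assigned to one of them. The mt-Tf gene spans bases 1 to 68 of the mitochondrial genome, and the FPKM of genes this short depends on the length that Cufflinks assigns to them.

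Gene length was set beside the calls as a description. Among protein-coding genes that are not mitochondrially encoded, the median span from first to last base was 21205 bases for 453 called higher, 34778 for 362 called lower and 24911 for 11844 tested. A span over 100000 bases was found in 17.4%, 26.2% and 15.5% of these groups. The median exonic length differed little, at 4586, 4636 and 4678 bases.

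Of the genes tested, 11985 had a mean of at least 1 scaled FPKM in both compartments, 1028 in axons alone and 686 in the somatodendritic compartment alone. Scaling raised axonal and lowered somatodendritic values. Before scaling, fewer genes reached 1 FPKM in axonal libraries (11469 to 12158) than in somatodendritic libraries (12775 to 13446). Among genes called, 17 higher genes were listed at 0 in all somatodendritic libraries and 35 lower genes in all axonal libraries. A value of 0 in these files can reflect few fragments, as 3987 of the genes tested were listed at 0 in at least 1 axonal library and 2246 in at least 1 somatodendritic library.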

How the data were processed

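The authors prepared total RNA from the axonal and somatodendritic compartments, amplified the whole transcriptome by PCR, mapped the reads and computed FPKM for each library with Cufflinks 2.2.1, and per the labels used FastQC 0.10.1 and the mouse genome build GRCm38. The deposited FPKM files hold a 95% interval for each of 39174 genes and no read counts. The aligner's version is not given in the sources used here. Reads were amplified without molecular identifiers, so that implied fragments cover counting error only.

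Implied fragments were computed as the square of 2 times FPKM over the distance to the upper limit, and the relative depth over 2783 genes with more than 3 such fragments in every library. Libraries were brought to a common scale by median-of-ratios factors from the 7890 genes that reached 1 FPKM in all 8 (0.814 to 0.883 in axons and 1.18 to 1.29 in cell bodies), a pseudocount of 1 was added, and genes whose mean reached 1 were compared, 4 libraries against 4, by limma (version 3.58.1, under R 4.3.3) with moderated variances and a trend, with Benjamini-Hochberg adjustment. The study's methods refer elsewhere for its own test. On simulated data for this comparison with 13699 genes, 59% of 100 genes changed 4-fold and 10% of 100 changed 2-fold were recovered, with 3 false calls. The changed genes were drawn from those with a mean of at least 10 scaled FPKM, and both compartments were given the same spread. Other steps used Python 3.11.15 with numpy 2.4.6, pandas 2.3.3 and matplotlib 3.10.9. Biotypes and gene spans came with the authors' deposited values. Exonic lengths came from GENCODE M21 for 37604 genes (96.0%), and promoter windows from RefSeq on GRCm38.p6.

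The libraries and gene lists were chosen with earlier results of these data known. Genes were named by a rule: the 10 protein-coding genes with the largest difference in each direction among called genes whose groups do not overlap and whose higher mean is at least 10, the 5 of other types, the 5 most abundant of each compartment, and the extreme called and most abundant members of each list. Some genes under this rule are not reported here. Every other gene named was chosen after its values were seen, as were the 6 families counted by symbol and the search for CArG boxes. Alternatives were other scalings, pseudocounts and filters, limma without a trend, array weights, a replicate block, and leaving out each library. The libraries of Tdp-43 knockdown were not analysed here.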

Additional observations from a re-analysis of the deposited data

Results flagged for a closer look

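In groups of 4 libraries, a library was singled out when its gap to the nearest other library exceeded Dixon's limit for the range of the group. For normally distributed values, chance does so in about 1 of 20 groups. FPKM values need not be normal, and a library alone above 0 is always singled out, so this rate does not apply here. Of 304 groups looked at, 30 were singled out, 17 of them axonal, and 10 of these through axonal replicate 4. All values below are scaled FPKM unless a percentage is named.

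Axonal replicate 4 was low for Ctgf (19.0, nearest 75.5), Tubb6 (12.1, nearest 115.5) and Myl9 (11.6, nearest 136). It was high for mt-Co1 (12931, nearest 4830), mt-Rnr1 (128051, nearest 37740), Smarca2 (159, nearest 70.7), Ntrk2 (55.3, nearest 15.2), Fabp7 (283.5, nearest 69), Hist1h4k (25.5, nearest 10.6) and Rwdd2a (2.37, others listed at 0). Axonal replicate 2 was high for Tsen15 (3.69) and Isl1 (8.46), both listed at 0 in the others, and for Pfkm (14.2) and Kpnb1 (97.3). Axonal replicate 3 was high for Nes (117.5) and Gm12371 (2.31, others listed at 0). Small nucleolar RNA took 0.386% of summed FPKM in axonal replicate 1, with the nearest library at 0.228%.

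Somatodendritic replicate 4 was high for Thbs1 (31.3), Col1a1 (5.77) and Sparc (176), and for Nupr1 (1.71) and Hspb1 (1.57), both listed at 0 in the other somatodendritic libraries. It was low for Olig1 (24.8) and Snap91 (52.9). Somatodendritic replicate 3 was low for Snap25 (143.5) and was the only one above 0 for the 5S rRNA copies Gm24312, n-R5s106 and n-R5s118 (2.37). Somatodendritic replicate 2 was low for Elavl4 (96.7) and had the highest share of mitochondrially encoded RNA (13.6%). The matrix genes singled out in somatodendritic replicate 4 were those higher in axons, and Olig1 and Snap91 those lower in axons.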

How the results depend on the processing

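Of 104 named genes that were called, 57 kept their call under every alternative and 59 without each library in turn, and none reversed. With FPKM as deposited, 344 genes were higher and 1711 lower. Without a trend in limma, 243 were lower. Leaving out each library in turn gave 257 to 825 higher and 105 to 736 lower genes, the highest counts without axonal replicate 4. Same-numbered libraries of the 2 compartments did not deviate together (correlations of -0.0128, -0.0237, 0.0084 and -0.0354 for numbers 1 to 4). Such values cannot exclude that equal numbers come from the same culture, which the labels do not give. With the replicate block, 324 genes were higher and 136 lower, and 1 of the 4 axonal libraries, replicate 3, correlated best with the somatodendritic library of its own number. Without mitochondrially encoded genes in the sum, the lincRNA share was 50.2% in axons and 37.2% in cell bodies, and the miscellaneous RNA share 8.81% and 12.7%. Axonal replicate 4 was then above every somatodendritic library in both, at 38.96% and 15.95%. The nuclear protein-coding shares were 31.1% in axons and 40.7% in cell bodies.

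The genes that reversed were not called in the main test. With FPKM as deposited, these were Eef1a1 (-0.17), Ngfrap1 (-0.48), Aldoa (-0.50), Psmc3 (-0.20), Hsp90ab1 (-0.28), Hmgcs1 (-0.48), Jun (-0.051) and Calr (-0.13). With upper-quartile scaling they were Ngfrap1 (-0.074), Aldoa (-0.096) and Hmgcs1 (-0.078), and with quantile normalization Aldoa (-0.026) and Hmgcs1 (-0.064). Without 1 library in turn, the log2 difference ranged from -0.094 to 0.20 for Ngfrap1, -0.054 to 0.13 for Aldoa, -0.42 to 0.12 for Smarca2, -0.45 to 0.37 for Hist2h2bb, -0.029 to 0.12 for Hmgcs1, -0.29 to 0.13 for Mrps21, -0.58 to 0.064 for Meg3 and -0.95 to 0.26 for Slc1a3. List medians of initiation and elongation factors, glycolysis, axonally localised mRNAs, splicing factors, chromatin, proteasome, chaperones, cholesterol synthesis and the secretory pathway turned negative with FPKM as deposited, whose scaling lowers the median of all genes to -0.48. Those of glycolysis, axonally localised mRNAs, splicing factors, proteasome and cholesterol synthesis were also below 0 with quantile normalization and with upper-quartile scaling. With 4 libraries a group, the simulated test recovered 10% of 2-fold changes among genes with a mean of at least 10 scaled FPKM. Changes at lower levels were not simulated, and the parts of depth, spread and number of libraries were not separated.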

Other observations

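Several gene groups with household functions held no called gene in either direction after scaling, beside 3.93% and 2.93% of all genes called higher and lower, shares that give few calls in lists of this size. None of 76 mitochondrial ribosomal protein genes was called (median log2 difference -0.17, summed level 857 to 1229 scaled FPKM in axons and 995 to 1034 in cell bodies), in contrast to 19 of 81 cytosolic ribosomal protein genes. The difference between these lists was not tested. With FPKM as deposited, 9 mitochondrial ribosomal protein, 6 chromatin and 5 cholesterol synthesis genes were lower. Likewise none of 31 proteasome subunit genes was called (median 0.05, summed level 1153 to 1472 against 1120 to 1189), none of 39 chromatin and transcription genes (median 0.16) and none of 22 cholesterol synthesis genes (median 0.05). Psmc3, an ATPase of the proteasome, was at 119, 145, 107 and 82.5 in axons and 72.2, 66.2, 119.9 and 109 in cell bodies, and Hmgcs1, which starts sterol synthesis, at 71.1, 79.6, 63.2 and 85.6 against 66.8, 72.3, 69.5 and 80.5. The groups of both genes overlapped.

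Of 39 kinesin, dynein and dynactin genes, 3 were lower, Kifap3 (-1.30), Kif3a (-1.21) and Dynll2 (-1.09), and none was higher, beside 2.93% of all genes called lower. No call was left without somatodendritic replicate 3 or with the replicate block, 8 were made without axonal replicate 4 and 15 with FPKM as deposited, and that of Kifap3 was lost in 11 of 19 alternatives. Kif3a and Kifap3 encode parts of the same kinesin-2 motor. Of 55 replication-dependent histone genes, Hist1h4k was lower (-1.60) and none was higher (median -0.12). This call was lost in 4 of 19 alternatives, and with FPKM as deposited 13 histone genes were lower. Of 32 genes of the secretory pathway, Sec63 and Pdia3, which act in the endoplasmic reticulum, were higher (1.15 and 0.78), and the median of 0.29 fell to -0.21 with FPKM as deposited. With any single somatodendritic library left out, neither was called. Of 28 heat shock and chaperonin genes, the small heat shock protein Hspb1 was higher at 21, 23.8, 9.78 and 1.68 in axons against 0, 0, 0 and 1.57 in cell bodies, and lost its call in 6 of 18 alternatives. Of 33 genes linked to ALS, Pfn1 was higher and Tuba4a and Stmn2 were lower (0.92, -2.0 and -1.37), or 1 and 2 of 33 beside 3.93% and 2.93% of all genes. With FPKM as deposited none was higher and 6 were lower. The call of Pfn1 was lost in 14 of 19 alternatives, and those of Tuba4a and Stmn2 in none. Of 17 motoneuron identity and cholinergic genes tested, Gfra1, a receptor component for glial cell line-derived neurotrophic factor, was lower (-1.19), at 7.67 to 13.2 in axons and 18.8 to 27.7 in cell bodies, and lost its call in 8 of 19 alternatives.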
